A study of Drosophila melanogaster with 3 samples.

Results

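The regions described here are the autosomal HLH54F peaks that lay inside introns, away from any annotated promoter. They were taken from the optimal list of reproducible peaks on the dm6 genome. Every chromosome other than X was kept. A peak was a member when its summit, the base of highest signal, was over 500 bp from every annotated transcription start site (TSS), inside a gene and outside every exon. This gave 882 members of 4246 optimal peaks, or 25.5% of the 3457 optimal peaks on autosomes (95% Wilson interval 24.1 to 27.0%, counting error over peaks only). Of the other autosomal optimal peaks, 2160 (62.5%) were within 500 bp of a TSS and are called promoter peaks, and 350 (10.1%) were intergenic. A further 6160 peaks of the pooled list met the same positional rule but overlapped no optimal peak, and are called weaker distal intronic peaks. Of all 7228 pooled autosomal peaks with a distal intronic summit, 12.2% were optimal, against 17.5% of pooled autosomal peaks of every position.

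The study profiled 1 group, with no second condition: embryos of a transgenic Drosophila melanogaster line that stably expressed HLH54F joined at its C terminus to GFP, males and females pooled, collected at 0 to 24 h. There were 3 biological replicates of whole embryos, and the labels do not say whether these were separate collections. Immunoprecipitated DNA was sequenced (ChIP-seq); the sample descriptions name an antibody against GFP, while the antibody field names HLH54F itself. In whole embryos, binding in few cells and weak binding in many cells cannot be told apart. Read depth of the replicates is unknown here. Peak height is the signal the authors deposited for each peak, and ranks run from 1 for the strongest peak of a list.

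HLH54F is a basic helix-loop-helix (bHLH) transcription factor. It specifies the caudal visceral mesoderm, whose cells migrate along the gut and form its longitudinal muscles. Proteins of this family bind DNA as dimers at the E-box, CANNTG. Fly genes often carry enhancers, the distal elements that set where and when a gene is transcribed, inside long introns and in particular the first one. Whether a peak marks an enhancer was not measured in these embryos.

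The DNA under the summits is shown for the 4 strongest members and for 5 of the strongest with at least 3 leading hexamers. One autosomal arm is left out. The 4 leading hexamers stood first when hexamers were ordered by their counts at member summits against those in flanks. Each line gives 60 bp on either side of the summit, on the plus strand of the release 6 genome (RefSeq), 5′ to 3′. Capitals mark the hexamer ACAGTG, the hexamer AGTGTA, the hexamer ACTGTA or the hexamer ACACTG on either strand, and adjoining or overlapping copies run together.
ush (chr2L:481000-481120): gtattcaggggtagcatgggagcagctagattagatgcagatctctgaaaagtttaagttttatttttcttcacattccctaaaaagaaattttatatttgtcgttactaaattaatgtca
CG11050 (chr2L:6612647-6612767): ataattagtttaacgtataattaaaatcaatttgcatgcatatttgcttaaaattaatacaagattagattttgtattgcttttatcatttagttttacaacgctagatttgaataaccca
Lk6 (chr3R:11761006-11761126): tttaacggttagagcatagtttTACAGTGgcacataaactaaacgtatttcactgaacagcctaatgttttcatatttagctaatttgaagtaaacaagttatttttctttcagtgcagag
CG9663 (chr2L:3302116-3302236): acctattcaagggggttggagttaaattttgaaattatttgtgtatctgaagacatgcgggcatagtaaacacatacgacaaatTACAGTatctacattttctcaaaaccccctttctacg
Baldspot (chr3L:16660615-16660735): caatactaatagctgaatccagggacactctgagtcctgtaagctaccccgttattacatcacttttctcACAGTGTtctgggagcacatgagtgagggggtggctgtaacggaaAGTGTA
REPTOR (chr3R:24567514-24567634): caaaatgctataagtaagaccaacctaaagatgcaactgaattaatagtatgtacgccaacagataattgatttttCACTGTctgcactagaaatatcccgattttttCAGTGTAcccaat
Eip63E (chr3L:3518118-3518238): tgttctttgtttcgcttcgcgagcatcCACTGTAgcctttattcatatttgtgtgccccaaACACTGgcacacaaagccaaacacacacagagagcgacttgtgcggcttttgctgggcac
tara (chr3R:16236997-16237117): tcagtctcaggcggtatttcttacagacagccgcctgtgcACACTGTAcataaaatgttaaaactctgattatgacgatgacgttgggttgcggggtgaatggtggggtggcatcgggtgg
Tpr2 (chr2L:16500611-16500731): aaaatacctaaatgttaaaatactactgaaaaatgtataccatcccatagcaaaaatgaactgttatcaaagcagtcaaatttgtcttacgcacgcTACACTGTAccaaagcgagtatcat
The 4 strongest windows were rich in A and T and differed in what they held. The windows of ush and CG11050 had none of the 4 hexamers, CG9663 had 1 and Lk6 had 2. In tara, ACACTGTA carried 3 of them in 8 bases, since ACACTG overlaps there with ACTGTA and, on the other strand, with ACAGTG. In Tpr2, TACACTGTA carried all 4.

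Member signals spanned a wide range, from 92.7 to 2934, with a median of 142 (quartiles 110 and 198). The median was 167 for promoter peaks, 138 for intergenic peaks and 37.4 for the weaker distal intronic peaks. The strongest member lay in the first intron of ush, whose product is a Friend-of-GATA protein that works with GATA factors in blood cells and the dorsal embryo. It spanned 480835 to 481324 on 2L. Its signal was 2934 in the pooled list and 1138, 965 and 827 in replicates 1, 2 and 3, where it ranked 3, 1 and 3. The nearest TSS was that of cbt, 1372 bp away, and the nearest TSS of ush itself was 4840 bp away. The member in CG11050 came next (2L, 6612495 to 6612919); its signal was 1994, and it ranked 5, 4 and 8. Its summit was in an intron of only 140 bp, so the 425-bp peak reached over the flanking exons. Lk6, which encodes a kinase of the translation initiation factor eIF4E, had a member of signal 1792.5 in its first intron (3R, 11760850 to 11761247; ranks 7, 7 and 10). CG9663 had a first-intron member of signal 1692 (2L, 3301950 to 3302570; ranks 11, 13 and 11). These 4 members stood within the 13 highest ranks of every replicate, and only the ranks of CG11050 and Lk6 overlapped.

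The other 16 of the 20 strongest members found in every replicate had signals from 607 to 1294. Several of their hosts encode chromatin and transcription proteins. HmgD, an HMG-box chromatin protein gene, ranked 32, 25 and 20 (2R, signal 1294). Adf1, a gene of a MADF-domain transcription factor, ranked 28, 46 and 27 (2R, signal 1203). Trl, which encodes the GAGA factor, had a member in its second intron of signal 1028 that ranked 50, 32 and 51 (3L). The hosts wde (a cofactor of histone H3 lysine 9 methylation), Hr3 (a nuclear receptor of the ecdysone response) and Mi-2 (a nucleosome remodeller) had members of signal 738, 645 and 607. Others encode kinases: the member of Csk, the C-terminal Src kinase gene, ranked 128, 133 and 109, and that of for, a cGMP-dependent kinase gene, ranked 111, 101 and 140. The remaining hosts were CG9837, CG32486, mub (an RNA-binding protein), Hyls1 (a centriole protein), Prps (phosphoribosyl pyrophosphate synthetase), CG31635, CG4496 and CG12769. Of the 20 members, 15 (75%) lay in a first intron. The summits in HmgD, Hyls1, Hr3 and Mi-2 also lay inside another gene, and the host named is the longest protein-coding one.

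**Figure D1:**
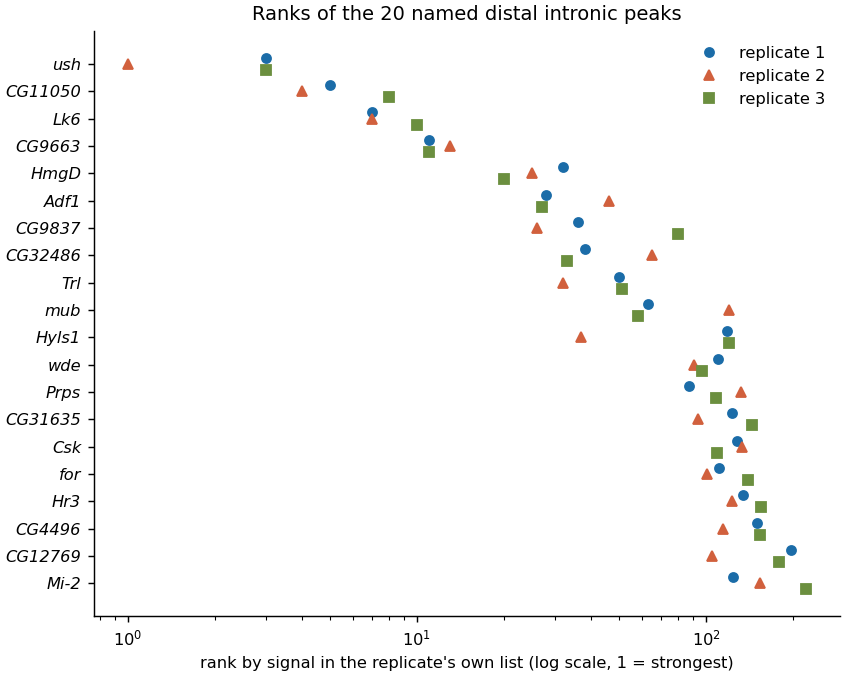
Rank by signal of each of the 20 strongest distal intronic members found in a top peak of every replicate, in the 3 replicates' own lists (log axis, 1 is strongest), named by host gene and ordered by pooled signal. The member of ush ranked 3, 1 and 3 and that of Mi-2 ranked 124, 153 and 221; neighbours lower in the order overlapped in rank.

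Support in the replicates was read from each one's 4246 peaks of highest signal, its top peaks. The summits of 525 members (59.5%, 56.2 to 62.7%) fell inside top peaks of all 3 replicates, against 69.1% (67.1 to 71.0%) of promoter peaks and 66.2% of all optimal peaks. Another 246 members were found in the top peaks of 2 replicates, 106 in those of 1 and 5 in none. Replicates 1, 2 and 3 held 85.1%, 82.8% and 78.5% of the members. Their whole lists, which run far into background, held 95.9% of members in all 3, and 4, 12 and 21 members were in no peak of replicates 1, 2 and 3. Members ranked below promoter peaks in each replicate. Their median ranks were 2409, 2391 and 2587 in replicates 1, 2 and 3, against 1874, 1843 and 1890.5 for promoter peaks, a difference of 593 ± 89.7 ranks (SD, n = 3). The exact sign-flip permutation test over replicates gave p = 0.25, two-sided, the smallest value that 3 replicates allow, so the 0.05 level was out of reach.

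Support went with the position of a peak in the optimal list. Members made up 14.9% of autosomal optimal peaks ranked 1 to 500, 22.1% of those ranked 501 to 1000, 22.8% at 1001 to 2000, 27.8% at 2001 to 3000 and 31.5% at 3001 to 4246. Within these classes the share found in every replicate was close for members and promoter peaks: 93.4% against 97.5% in the highest class, 100% against 98.9% in the next, then 97.3% against 94.9%, 68.1% against 67.1%, and 13.8% against 14.5% in the lowest. The intervals of members and promoter peaks overlapped in each class. In the highest class 4 members missed a top peak in 1 replicate each. Those of Dhc64C, the dynein heavy chain gene (signal 438), in replicate 1, and of Btk, a Tec family kinase gene (404), Dad, the inhibitory SMAD gene (399), and Lrch (387) in replicate 2 had their summit in no peak of that replicate.

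Rank correlations between replicates were lower for members than for promoter peaks, and the spread of ranks itself was not compared. For members with a rank in each of 2 replicates, the Spearman rank correlation was 0.66 for replicates 1 and 2, 0.69 for 1 and 3, and 0.58 for 2 and 3, against 0.78, 0.79 and 0.70 for promoter peaks. These values are over peaks of shared libraries and a narrower span of ranks, and have no p-value. The widest spread among members in every top list was at Pdk, the pyruvate dehydrogenase kinase gene, where a peak of pooled signal 157 ranked 3879, 804 and 3294. At the lower end of the list the 5 weakest members lay in foxo, Gbs-70E, Pka-C1, hebe and psq, with signals from 92.7 to 92.8. None of these 5 was found in the top peaks of every replicate. The member in foxo, a transcription factor gene of insulin signalling, ranked 3515 and 2578 in replicates 1 and 2 and was in no peak of replicate 3.

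Members lay mostly in early introns of their host, by intron number and not by distance from its start. The first intron held 487 of them (55.2%, 51.9 to 58.5%), intron 2 held 241 (27.3%), intron 3 held 79 (8.96%) and later introns held 75 (8.50%). First introns supplied only 30.5% of the autosomal bases where a member could lie, which are called distal intronic bases. Members therefore numbered 37.5 per Mb of distal first-intron sequence, 22.3 per Mb in intron 2, 15.0 per Mb in intron 3 and 5.54 per Mb beyond. Intron number was read from the longest host transcript that spans the summit. The last intron of such a transcript held 19 members (2.15%).

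The weaker distal intronic peaks leaned the same way but less: 43.5% (42.3 to 44.8%) were in a first intron. The rule was then applied to each replicate's own list. Top peaks were in first introns in 55.7%, 56.0% and 55.1% of cases in replicates 1, 2 and 3, against 43.1%, 44.4% and 37.9% of each replicate's weaker peaks. The difference was 13.8 ± 2.94 percentage points (SD, n = 3), positive in 3 of 3 replicates (exact sign-flip permutation p = 0.25, two-sided, the smallest possible). On X, 44.9% (39.3 to 50.6%) of the 292 distal intronic optimal peaks lay in a first intron, and its interval did not reach that of the autosomal members. The first-intron share of bases was read on autosomes only, so this difference was not set against the introns of X.

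**Figure D2:**
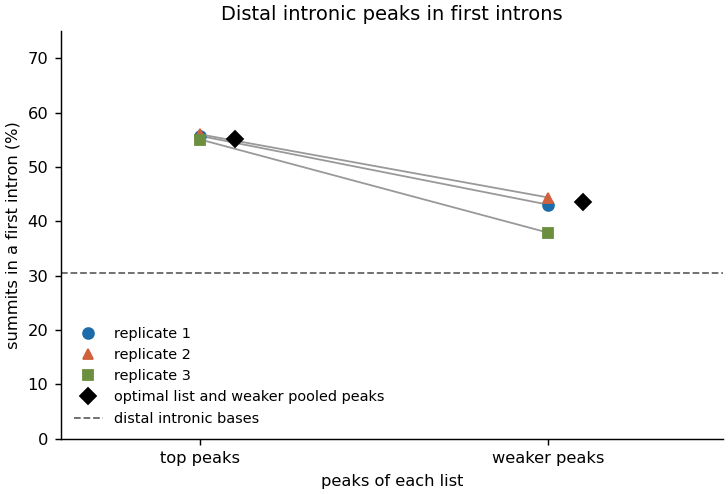
Share of distal intronic autosomal summits in a first intron (vertical axis, %) for each replicate's own top peaks and weaker peaks, joined by lines, with the 882 members and the 6160 weaker pooled peaks as diamonds. Top peaks stood at 55.1 to 56.0% and weaker peaks at 37.9 to 44.4%, all above the 30.5% of distal intronic bases (dashed line).

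Most members were within a few kb of a start site. The distance to the nearest TSS ran from 501 to 41818 bp, with a median of 2212.5 bp (quartiles 1034.5 and 5152.5). The median was 3428 bp for the weaker peaks and 5671 bp over distal intronic bases. Top peaks of replicates 1, 2 and 3 had medians of 2042, 2214 and 2256 bp (2171 ± 113, SD, n = 3), against 3418, 3170.5 and 4479.5 bp for their weaker peaks (3689 ± 695), so the replicates' values did not overlap. Member density per Mb of distal intronic sequence fell with distance, at 58.6 between 501 and 1000 bp, 37.1 up to 2000 bp, 22.1 up to 5000 bp, 17.7 up to 10000 bp and 5.32 beyond. For the weaker peaks the densities were 259, 205, 165, 148 and 74.2 per Mb.

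**Figure D3:**
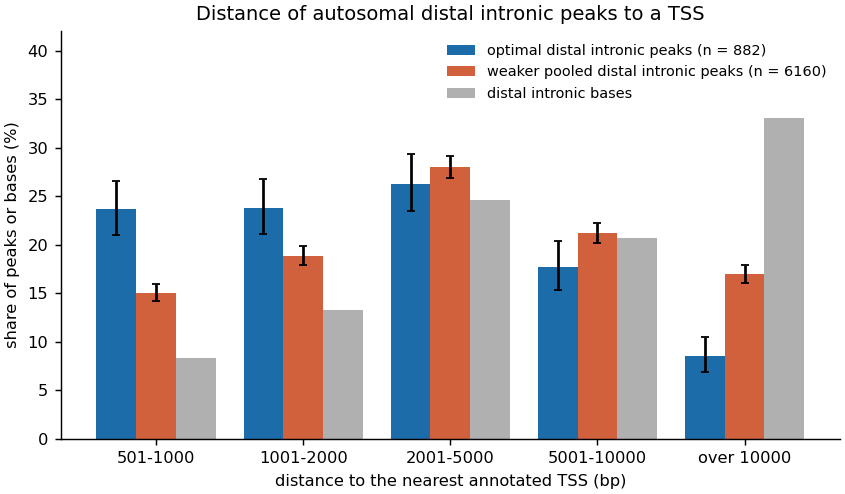
Share of members, of weaker distal intronic peaks and of distal intronic bases (vertical axis, %) in classes of distance to the nearest annotated TSS (horizontal axis, bp); bars on the peak shares are 95% Wilson intervals. Members at 501 to 1000 bp made up 23.7% against 15.0% of weaker peaks and 8.37% of bases, and beyond 10000 bp 8.50% against 17.0% and 33.1%.

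Distance and intron number are linked, so the first-intron share was also read within each distance class. At 501 to 1000 bp 67.5% (60.8 to 73.5%) of members were in a first intron, against 62.8% of weaker peaks and 52.6% of bases. The shares were 63.8%, 55.5% and 45.9% at 1001 to 2000 bp, 53.4%, 44.3% and 37.2% at 2001 to 5000 bp, and 46.2%, 35.0% and 28.9% at 5001 to 10000 bp. Beyond 10000 bp only 16 of 75 members (21.3%, 13.6 to 31.9%) were in a first intron, against 22.7% of weaker peaks and 14.8% of bases. The member share was above that of bases in each class, and its interval excluded the bases' share in each class but the farthest. Median member signal was 152, 147, 137, 131 and 137 from the nearest class to the farthest.

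For 660 members (74.8%) the nearest TSS was one of the host's own, and 559 (63.4%) lay downstream of the nearest TSS in its direction of transcription. Every member lies inside a gene by the rule, and neither share was set against distal intronic bases or the weaker peaks. The median intron length was 11466 bp for members, 12520 bp for the weaker peaks and 15353 bp over distal intronic bases. Within the intron 25.3% of members were in the first 20% of its length from the 5′ end and 13.3% in the last 20%. These shares were not set against bases either. The most distant members were in Snoo, a gene of the Ski family of corepressors of SMAD signalling, at 41818 and 34915 bp, and in luna, a Krüppel-like factor gene, at 40948 bp. The 500-bp limit was met closely by members in Pcyt1 (501 bp, signal 154), shep (502 bp, signal 212) and RhoGAP68F (502 bp, signal 149). Just outside it were peaks in flfl (498 bp, signal 139), bun (496 bp, signal 111) and TP53INP (496 bp, signal 105).

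Members were spread over the autosomal arms in proportion to the optimal peaks there. Arm 2L held 206, arm 2R 200, arm 3L 207 and arm 3R 268, between 25.03 and 26.53% of the optimal peaks of each of these arms. Chromosome 4 had 1 member among 18 optimal peaks, in the first intron of Asator (signal 128). Per Mb of distal intronic sequence the density was 24.0 members for arm 2L, 21.6 for 2R, 19.9 for 3L, 19.4 for 3R and 1.74 for chromosome 4, against 28.6 distal intronic optimal peaks on X. On X 37.0% (33.7 to 40.4%) of optimal peaks were distal intronic, against 25.5% on autosomes. No member summit lay in an annotated transposable element, which allows a share of up to 0.340% (3 counts; the upper 95% Wilson limit is 0.434%), while such elements covered 7.23% of distal intronic bases. Of the weaker peaks 25 (0.406%) did, and the part that read mapping plays in this was not tested.

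The members lay in 551 host genes. Of the 6994 autosomal protein-coding genes with any distal intronic base, 541 (7.74%) held at least 1. Long genes were hosts more often: 19 of 4340 genes (0.438%) with up to 1 kb of distal intronic sequence held a member, against 62 of 154 (40.3%) of those with over 50 kb. Density per Mb was 17.6 in genes with up to 1 kb, 46.9 at 1 to 5 kb, 40.03 at 5 to 10 kb, 29.0 at 10 to 20 kb, 20.7 at 20 to 50 kb and 9.35 over 50 kb, so above the shortest class it was lower the longer the distal intronic sequence. Across the 6994 genes the Spearman rank correlation of distal intronic length and member number was 0.36, as a description over genes. A peak at one of their own promoters was found for 41.6% (37.5 to 45.8%) of the 541 protein-coding hosts, against 18.7% (17.8 to 19.7%) of the 6453 protein-coding genes with no member. These groups differ in length, with a median of 12352 bp of distal intronic sequence over all hosts against 454 bp over all genes. Within length classes the shares were 26.3% of 19 hosts against 18.8% of other genes up to 1 kb, with overlapping intervals. They were 40% (48 of 120 hosts) against 19.9% at 1 to 5 kb, 40.6% against 19.0% at 5 to 10 kb, 43.6% against 17.6% at 10 to 20 kb, 46.3% against 15.2% at 20 to 50 kb and 37.1% against 10.9% over 50 kb, where the intervals did not overlap.

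**Figure D4:**
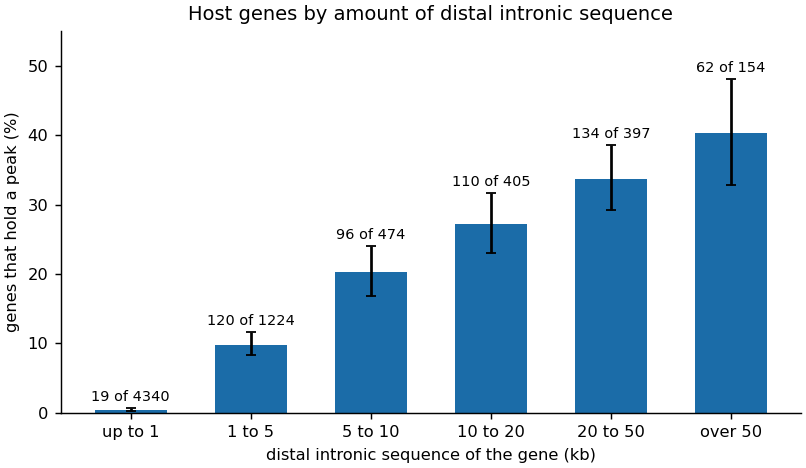
Share of autosomal protein-coding genes that held at least 1 member (vertical axis, %) by the amount of distal intronic sequence in the gene (horizontal axis, kb), with 95% Wilson intervals and the numbers of genes. The share was 0.438% in genes with up to 1 kb and 40.3% in genes with over 50 kb.

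Several members in 1 gene were common. Among hosts, 365 had 1 member, 104 had 2, 50 had 3, 18 had 4, 9 had 5 and 2 had 6. The largest numbers were in shn (11), ush (10) and sbb (9). Over all protein-coding genes 185 of 6994 (2.65%) had at least 2; with non-coding hosts 186 genes did, and they held 517 members (58.6%). Neighbouring members of a gene lay a median of 2956 bp apart, 120 of the 517 were within 1000 bp of another, and 32 adjacent pairs overlapped as intervals. Such close members are not independent, since 1 replicate peak can cover both summits.

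The gene shn encodes a zinc-finger protein of Dpp signalling, the fly BMP pathway. Its 11 members (2R) had signals from 96.2 to 244 with a median of 149 and spanned 27927 bp; 3 were in intron 1 and 8 in intron 2, and 7 were found in every replicate. The 10 members of ush were all in its first intron of 49060 bp and spanned 41071 bp. Beside the strongest one, at 2934, the others had signals from 107 to 244, and only 4 of the 10 were found in every replicate. The 9 members of sbb, a transcriptional corepressor gene, all lay in intron 2 over 46640 bp (2R, signals 106 to 227), and 7 were found in every replicate. In tara, a gene of trithorax group interactions, 6 members lay in the single intron of 30338 bp, with signals from 102 to 242. In B4 a pair of members 200 bp apart, of signal 153 and 93.4, fell in the same peak in each replicate, with ranks of 1550, 3263 and 1795. The next 5 hosts in order, each with 5 members, were sick, crp (a bHLH factor), tou (a chromatin remodelling subunit), CG32264 and Snoo. In tou the member of highest signal, 500, ranked 248, 379 and 175.

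Lists of genes by tissue and pathway are described by counts; beside them stand the 7.74% of all genes that were hosts and 20.7 members per Mb. Listed genes mostly carry far more distal intronic sequence than the median gene, at 454 bp, and both the share of hosts and the density vary with that length, so neither was compared between lists of different length. For the caudal visceral mesoderm, the tissue that HLH54F specifies, 3 of 13 listed genes with distal introns were hosts, with 18.0 members per Mb. They were zfh1, a zinc-finger homeodomain factor of that tissue (3R, signal 462; ranks 311, 260 and 304), ths, an FGF ligand (2R, signal 232; ranks 1339, 987 and 1114), and beat-IIa (3R, signal 94.6; ranks 4955, 5631 and 2754). The zfh1 member was strong in every replicate, and that of beat-IIa was a top peak in 1. Of 15 genes of trunk visceral mesoderm and gut muscle 3 were hosts (23.9 per Mb): Mef2, the muscle MADS-box factor, with 3 members up to a signal of 203, Fas3, an adhesion molecule (195), and jeb, a secreted ligand of visceral muscle founders (142). Of 14 sarcomere genes Msp300, Tm1 and Zasp52 were hosts (26.2 per Mb), with a highest signal of 121.

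In EGF and FGF receptor signalling 9 of 21 genes were hosts, with 18 members and 54.5 per Mb. The weaker distal intronic peaks were also denser there, at 227 per Mb against 145 per Mb over all genes, and the median length of distal intronic sequence was 10871 bp. They included the adaptor gene drk (signal 359), S, whose product carries the ligands out of the endoplasmic reticulum (340), and the ETS factors aop (313) and pnt (234). The receptor gene Egfr itself had 1 member of signal 120 that was a top peak in 1 replicate. Among 20 genes of nuclear receptors and the ecdysone response 7 were hosts, with 39.5 members per Mb: Hr3 (645), EcR, the ecdysone receptor (336), Eip75B (191) and ftz-f1 (158) led them. The EcR member (2R, 6151185 to 6151366) ranked 519, 508 and 546. In the Notch pathway mam, a co-activator gene, had 4 members up to 413 (ranks 330, 419 and 403), and neur (295) and numb (100) had 1 each, giving 3 hosts of 13 and 27.4 members per Mb.

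The Polycomb and trithorax group list had 6 hosts of 22 and 75.7 members per Mb, with 227 weaker peaks per Mb and a median of only 1184 bp of distal intronic sequence. Trl led it with 3 members up to 1028, followed by trx, a histone methyltransferase gene, with 4 members up to 502 (ranks 284, 151 and 377), kis (221) and Psc (177); the other hosts were jing and osa. The blood cell list had 90.0 members per Mb, but 10 of its 11 members were those of ush and the other that of zfh1, so 2 of 12 genes were hosts. The other 4 lists, like that of the caudal visceral mesoderm, were below the density over all genes. The median distal intronic length of these 4, from 12869 to 70004 bp, was far above 454 bp. Homeodomain genes had 6 hosts of 38 and 11.96 members per Mb, with zfh1, Antp (206), Ubx (140) and hth (138) the strongest. Axon guidance genes had 5 hosts of 25 and 9.16 per Mb, led by side (269), sli (189), fra (133) and Sema1a (126). RNA-binding regulators had 6 of 17 and 10.3 per Mb, led by shep (290), how (216), pum (176) and Rbfox1 (160). Ion channel and receptor genes had 5 of 19 and 12.1 per Mb, led by KCNQ (579; ranks 138, 239 and 176), Ca-beta (185), mAChR-A (146) and nAChRalpha6 (112).

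Sequence at the summits was read in windows of 201 bp and compared with equal windows centred 600 bp away on a random side, and with 85186 windows tiled over all autosomal distal introns. Both strands were searched. An E-box of any form, CANNTG, was in 64.4% (61.2 to 67.5%) of member summit windows, against 67.0% (63.8 to 70.03%) of their flanks and 63.1% of tiles. Among the 10 forms of the E-box, CAGCTG was in 7.37% of member summits, 8.96% of flanks and 7.32% of tiles, while at promoter peaks it was in 14.4% of summits and 10.4% of flanks. In the replicates' own distal intronic top peaks, CAGCTG was 1.78, 2.02 and 3.69 percentage points less frequent at summits than in flanks in replicates 1, 2 and 3. The mean difference was -2.50 ± 1.04 points (SD, n = 3; exact sign-flip permutation p = 0.25, two-sided, the smallest possible). CATATG was in 8.84% of member summits, 7.48% of flanks and 5.95% of tiles, and its interval at member summits (7.14 to 10.9%) lay above the tiles but held the flank share. In the replicates' own top peaks CATATG was 2.45, 1.92 and 0.461 percentage points more frequent at summits than in flanks. Its mean difference was 1.61 ± 1.03 (SD, n = 3). CATATG alone among the 10 forms had a positive mean difference, and those of the other forms ran from -2.51 to -0.291 points. A lower mean share at summits than in flanks was therefore not particular to CAGCTG. No match says only that the letters are not in the window.

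The 4 hexamers shown in capitals above were picked from these same summit and flank windows, so their shares are a description. ACAGTG was in 24.8% (22.1 to 27.8%) of member summits, 10.8% of flanks and 7.24% of tiles. AGTGTA was in 18.4%, 6.24% and 7.90%, ACTGTA in 18.6%, 7.37% and 6.91%, and ACACTG in 17.8%, 6.92% and 7.17%. None of the 4 is an E-box, and they share letters with one another, so their shares do not add up. At least 1 of them was in 49.2% (45.9 to 52.5%) of member summits against 24.1% of flanks and 22.2% of tiles. The same count over sites not used to pick them was 48.6% of summits and 25.7% of flanks at the X intronic peaks, 43.3% and 22.2% at promoter peaks, 44.6% and 21.7% at intergenic peaks, and 29.8% and 21.6% at the weaker distal intronic peaks. Among members the share was 62.0% in the 100 of highest signal and 51.5% in the next 200. It was 45.7% in members 301 to 600 by signal and 46.8% in the 282 of lowest signal. The hexamers were most frequent beside the summit base: in windows of 51 bp, 16.7% of members held one in the window centred 50 bp upstream and 15.4% in the window 50 bp downstream, against 11.7% at the summit itself, where upstream and downstream are on the plus strand.

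Of 2 promoter elements read, each was in 1 member summit (0.113%, interval 0.02 to 0.639%). This interval held the tile share of each element. Every member is over 500 bp from any TSS by the rule, so promoter peaks are set beside members only as a description. TATCGATA, the core of the element bound by DREF, was in 1 of 882 member summits (0.113%), 9.12% of promoter summits and 0.433% of tiles. GGTCACAC, the core of the core-promoter motif bound by M1BP, which runs into ACACTG where TG follows it, was in 1 member (0.113%), 6.16% of promoter summits and 0.256% of tiles. GC content dipped at the summit: member windows averaged 36.3% GC against 41.4% in their flanks and 40.2% in tiles, and promoter peaks averaged 37.7% against 45.8%. The weaker distal intronic peaks averaged 40.9% at summits and 40.7% in flanks, with a shallow dip in windows of 51 bp, at 40.5% on the summit against 42.2% at 300 bp before it and 42.4% at 250 bp after it. GC differed between summits and flanks, and its part in the E-box and hexamer shares was not tested.

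**Figure D5:**
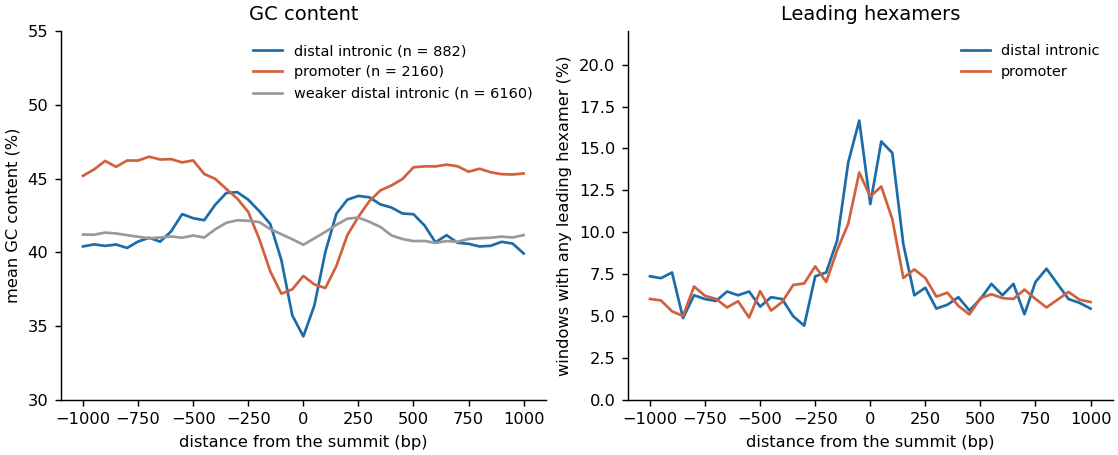
Mean GC content (left, %) and share of windows with any of the 4 leading hexamers (right, %) in 51-bp windows at 50-bp steps around the summit (horizontal axes, bp, plus strand), for members, promoter peaks and, on the left, weaker distal intronic peaks. Member GC fell to 34.3% at the summit, and the hexamer share of members reached 16.7% at 50 bp before it and 11.7% on it.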

How the data were processed

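ChIP-seq peak lists of 3 replicates, their pool and the optimal irreproducible discovery rate (IDR) list were used in dm6. The authors called each list against a control and deposited a signal and a −log10 q-value per peak; the signal ranked peaks within a list, and the q-value entered no test. For the signal's scaling, the aligner, the caller and the IDR settings, no statement is given in the sources used here. The relaxed lists held 30000, 30000 and 24914 peaks, the pooled list 23689 and the optimal list 4246; every optimal line was also in the pooled list, so no replicate is independent of it. Genes and TSS came from Ensembl release 115, without transposable elements, and sequence from the RefSeq release 6 genome, whose coordinates equal dm6. The host was the longest protein-coding gene at the summit, otherwise the longest gene. Shares have 95% Wilson intervals for counting error over peaks. Replicate differences had exact sign-flip permutation tests, which speak only for these samples. Where all replicates had the same sign, the test gave its smallest possible value, whatever the size or spread of the differences. Positional calls, lookups and the test were checked on simulated data. Python 3.11.15, numpy 2.4.6, pandas 2.3.3 and scipy 1.17.1 were used.

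Named genes were the 20 strongest members found in all replicates, the 10 hosts with most members, up to 4 hosts per list, the members nearest the TSS limit, weakest, farthest or widest in rank. A few genes were also named after their values were seen: 4 strong members missing from 1 replicate, the member on chromosome 4, and the remaining hosts of 2 lists. The members, the 12 gene lists described and the tests were chosen with earlier results of these data known; another list and 1 sequence are not reported here, and 5 listed symbols with no match in the annotation were not analysed here. The alternatives tried are given at the end.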

Additional observations from a re-analysis of the deposited data

How the results depend on the processing

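Of 42 alternative settings, 27 left the value within its margin and 15 moved it. None reversed the direction of a mean difference. The number and the share of members were tallied apart. For counts the margin was a factor of 1.5, so 1035 members at a TSS limit of 250 bp and 673 at 1000 bp stayed within it. A TSS limit of 250 bp gave 29.9% of autosomal optimal peaks as distal intronic with a median distance of 1670 bp, and a limit of 1000 bp gave 19.5% and 3388 bp, in place of 25.5% and 2212.5 bp. Protein-coding genes alone gave 2384.5 bp. Above the median signal of the autosomal optimal peaks there were 369 members (21.4%), 59.1% of them in a first intron, and 62 genes with at least 2. Counting a first intron of any spanning transcript gave 73.1%, and of every spanning transcript 48.5%. The share in every replicate was 95.9% with whole lists and 65.6 to 71.9% without 1 replicate, since fewer lists then have to hold the peak. Without 1 replicate the rank difference was 541.5 to 622 and the first-intron difference 12.1 to 14.9 points. The CAGCTG difference between summits and flanks was -2.86 to -1.90 points without 1 replicate. With 200 bp on each side it was -1.40 ± 1.93 (SD, n = 3), with an exact sign-flip permutation p = 0.5, two-sided. In that setting the replicates no longer all had the same sign. A requirement of over 500 bp from RefSeq start sites too, added after the data were seen, left all 882 members. No paired analysis was possible because there was only 1 group, so no samples pair across groups; differences between peak sets were taken within each replicate. Peaks of 1 gene are not independent, read depth is unknown, and host genes were assigned by position only.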
